A study of Mus musculus with 55 samples.

Results

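The RNA levels of 10 genes that mark liver macrophages were followed across 53 whole-liver RNA-sequencing libraries from mice with and without Rnf43 and Znrf3, membrane E3 ligases that remove WNT receptors, in their hepatocytes. The genes were chosen by symbol from the 34490 gene symbols that both sequencing batches share, and all 10 were found. They are Clec4f, Cd5l, Marco, Vsig4 and Timd4, markers of the Kupffer cells that live in the liver, Adgre1 and Cd68, found in macrophages in general, and Lyz2, Trem2 and Gpnmb, which are carried by recruited macrophages or by the macrophages of scars and lipid-laden tissue. R&Zflox mice, the control, carry both genes with floxed RING-domain exons on a C57BL/6 background. In R&Zdel mice those exons were removed from adult hepatocytes, either with tamoxifen through Alb1-CreERT2 or with an AAV8 virus in which the hepatocyte promoter TBG drives Cre. The deletion was therefore made in hepatocytes, not in the macrophages whose markers were read here. Control mice received the vehicle or a null virus. The labels list the R&Zflox CD livers as chronically damaged, while the study's methods state in 1 place that undeleted control littermates were given only the oil in which CCl4 is dissolved and speak elsewhere of controls under the same regimen. R&Zflox CD livers are called damaged here by their labels. Undamaged livers were taken at 1, 3 and 7 months after deletion (1M, 3M and 7M). Livers with chronic damage (CD), produced by repeated injection of the hepatotoxin carbon tetrachloride (CCl4), were taken at 4, 50 and 170 days of recovery. Livers after partial hepatectomy (PHx), in which part of the organ is cut away and regrows, were taken at 7 and 21 days. The CD mice and the 7M mice were induced with tamoxifen, and the 1M and PHx mice with virus. The undamaged 3M mice were induced with tamoxifen in the first sequencing batch and with virus in the second.

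The first batch held 23 libraries and the second 30, with total counts from 11721687 to 38692089 and a median of 22982428. The second batch detected fewer genes per library, from 11171 to 13874 against 15657 to 18545, so that levels are given for each batch apart. CD livers were all in the first batch and all male, with 2 libraries a group except R&Zflox CD 50d, which had 1. The study's own sample list puts both R&Zflox CD 170d libraries under R&Zflox CD 50d as well, and they were grouped by their GEO labels. PHx livers were all in the second batch, with 3 a group, male but for R&Zdel PHx 21d replicate 3. Undamaged groups held 4 and 4 libraries at 1M (R&Zdel and R&Zflox, with 2 males and 2 females each), 2 and 5 at 3M, and 5 and 5 at 7M, male but for R&Zdel 3M replicate 4 and R&Zflox 7M replicate 5. The labels do not say that the libraries of a group came from separate mice. For 5 libraries of the first batch the labels conflict, and these entered no group. A further pair of undamaged libraries, R&Zdel 3M replicate 4 and R&Zflox 7M replicate 5, carry titles that go against their other labels, and results that rest on them are also given without them. The whole-gene counts of Rnf43 and Znrf3 do not read the deleted exons: their median levels were 36.5 and 45.3 CPM (counts scaled to the library total) in 23 R&Zdel libraries and 11.8 and 17.8 CPM in 25 R&Zflox libraries. Both are themselves targets of WNT signalling.

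Kupffer cells line the liver sinusoids, where they clear bacteria, dying cells and old red blood cells from the blood with receptors such as the complement receptor encoded by Vsig4, the scavenger receptor encoded by Marco and the phosphatidylserine receptor encoded by Timd4. After injury, monocytes enter from the blood and become macrophages that at first lack the resident markers. Macrophages that express Trem2, a lipid receptor, and Gpnmb, a lysosome-associated glycoprotein, are found in the scars of fibrotic liver. In RNA of whole liver, fewer cells of a type and less RNA per cell cannot be told apart.

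In undamaged R&Zflox livers of the first batch (3M and 7M, n = 4) the 10 genes covered a wide range once their counts were divided by exon length and depth (RPKM). Lyz2, which encodes lysozyme, was highest, with a median of 99.6 RPKM and values from 62.3 to 143. Although listed with the markers of recruited macrophages, it was thus not low at rest. Cd5l, which encodes a secreted scavenger-receptor protein, and Clec4f, a C-type lectin of mouse Kupffer cells, followed with medians of 53.7 and 50.2 RPKM. Vsig4 had a median of 22.6 RPKM and Cd68, a glycoprotein of lysosomes, of 10.5 RPKM. Timd4 (3.25 RPKM), Marco (2.08) and Adgre1 (1.56), which encodes the F4/80 antigen, lay lower still. Trem2 had a median of 0.554 RPKM, and Gpnmb was lowest at 0.0879 RPKM. Neighbours in this order whose ranges overlapped were Lyz2 and Cd5l, Cd5l and Clec4f, Timd4 and Marco, Marco and Adgre1, and Adgre1 and Trem2. The scar-associated pair thus had the lowest medians at rest. Its range was not apart from that of every resident marker, as Trem2 reached 1.61 RPKM and Marco went down to 1.04 RPKM. The annotation lists the 5 exons of Trem2 on a patch sequence as well as on the chromosome. Its RPKM used the 1146 bases of the chromosome in place of the listed 2292. Whether its reads were undercounted for that reason was not tested. In the second batch Gpnmb had no count in any of the 8 undamaged 1M libraries, which allows at most 3 counts in each.

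The start sites of the resident markers are shown for the short motifs of factors known to act in macrophages. The 200 bases before the start site in the RefSeq promoter table (build GRCm38.p6, 9 of the 10 members) are printed for Clec4f (chr6:83656117-83656316, minus strand), Cd5l (chr3:87357681-87357880, plus strand), Marco (chr1:120505025-120505224, minus strand), Timd4 (chr11:46810599-46810798, plus strand) and the scar-associated Trem2 (chr17:48346201-48346400, plus strand). They run 5′ to 3′ on the strand of the gene, with every searched motif that lies in these 200 bases in capitals. The motif counts that follow are over the whole table entries, which have 300 bases, 250 before the start site and 50 after it.
Clec4f: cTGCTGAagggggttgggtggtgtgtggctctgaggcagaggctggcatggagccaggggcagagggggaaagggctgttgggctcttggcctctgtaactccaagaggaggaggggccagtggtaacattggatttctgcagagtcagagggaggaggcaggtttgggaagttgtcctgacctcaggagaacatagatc
Cd5l: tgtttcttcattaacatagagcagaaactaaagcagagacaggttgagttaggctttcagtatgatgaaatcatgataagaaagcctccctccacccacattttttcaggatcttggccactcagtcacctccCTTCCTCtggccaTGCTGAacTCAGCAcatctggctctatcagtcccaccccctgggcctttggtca
Marco: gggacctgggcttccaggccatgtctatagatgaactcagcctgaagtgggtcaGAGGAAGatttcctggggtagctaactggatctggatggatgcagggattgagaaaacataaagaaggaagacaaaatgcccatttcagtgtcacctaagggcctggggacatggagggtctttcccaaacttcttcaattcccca
Timd4: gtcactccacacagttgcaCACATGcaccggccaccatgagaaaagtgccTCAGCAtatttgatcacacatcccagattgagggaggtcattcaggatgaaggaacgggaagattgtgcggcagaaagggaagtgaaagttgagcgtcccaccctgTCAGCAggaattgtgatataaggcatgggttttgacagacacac
Trem2: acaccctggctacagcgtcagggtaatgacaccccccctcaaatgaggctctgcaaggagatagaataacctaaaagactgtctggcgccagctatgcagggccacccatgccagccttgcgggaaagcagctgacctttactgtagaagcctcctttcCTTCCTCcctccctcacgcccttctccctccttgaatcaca
The motifs were TGCTGA, a core of the sites of MAF factors, GAGGAAG, a core of the sites of PU.1, and the E-boxes CACGTG and CATGTG, searched on both strands. The MAF core lay in the promoters of 5 of the 9 members, Clec4f, Cd5l, Vsig4, Timd4 and Lyz2, and in 19.5% of all 32851 promoters of 300 bases. The PU.1 core lay in 3 of 9, Cd5l, Marco and Trem2, against 13.6% of all promoters. CATGTG was found in Marco and Timd4 and in 14.2% of promoters, and CACGTG in none of the 9 and in 7.15% of promoters. The MAF core of Vsig4 and the CATGTG of Marco lie after the start site, outside the stretches shown. In Cd5l a PU.1 core and a pair of MAF cores in opposite orientation lay next to each other, and no matches printed here overlap. A match of these letters is a description and not a bound site.

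Loss of Rnf43 and Znrf3 without damage was first compared at 1M, 3M and 7M. None of the 10 markers was called between R&Zdel and R&Zflox at any of these times (edgeR quasi-likelihood test, with the adjusted p below 0.1 and an absolute change of more than 1 on the log2 scale). The same rule called 0.436% of 12848 genes at 1M, 0.226% at 3M and 0.451% at 7M. An unadjusted p below 0.05 was reached by 0 members at 1M, 1 at 3M (Gpnmb) and 2 at 7M (Vsig4 and Timd4), and DESeq2 called 0 at each time. Of all 12848 genes, 994, 826 and 1142 reached that unadjusted p at 1M, 3M and 7M. At 7M, 9 of the 10 fitted changes were negative, with a median log2 fold change of -1.11 over the members and -0.02 over all genes.

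The clearest separation at 7M was in Timd4, the phosphatidylserine receptor of long-lived resident macrophages. In the first batch Timd4 was at 1.17 and 3.13 CPM in R&Zdel 7M livers and at 6.92 and 12.5 CPM in R&Zflox 7M livers. In the second batch it was at 0.459, 2.01 and 2.56 CPM in R&Zdel and at 6.55, 10.9 and 11.1 CPM in R&Zflox. Every grouped R&Zdel 7M library of both batches was below every R&Zflox 7M library. Timd4 was the only member whose groups did not overlap, while 1.70% of all genes had groups that did not. The fitted log2 fold change was -2.52 ± 0.94 (SE, n = 5 and 5), with an adjusted p = 0.418. Without R&Zflox 7M replicate 5 and R&Zdel 3M replicate 4 it was -2.43. A first-batch library with conflicting labels, listed as undamaged R&Zdel 7M by its characteristics, held 13.2 CPM of Timd4. That is above every R&Zflox 7M library, so that counting it as R&Zdel 7M would end the separation.

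Vsig4, Marco and Clec4f also had negative fitted changes at 7M, but their groups overlapped. Vsig4 was at 8.35 and 17.7 CPM in R&Zdel and 32.05 and 50.0 CPM in R&Zflox in the first batch, and at 1.81, 2.87 and 21.7 CPM against 15.7, 20.5 and 25.1 CPM in the second. The groups were apart in the first batch and overlapped in the second, where R&Zdel replicate 4 was as high as the controls (log2 fold change -1.32 ± 0.62, adjusted p = 0.535). Without that library Vsig4 passed the rule, at a log2 fold change of -2.40 and an adjusted p = 0.0499. The same omission raised the calls over all genes from 58 of 12848 to 204 of 12787. Every other single omission at 7M gave 38 to 49 calls, so that the change was not particular to Vsig4. Marco was at 0.773 and 0.783 CPM against 4.90 and 10.8 CPM in the first batch, but at 1.12 CPM or less in all 6 libraries of the second. Clec4f had means of 63.2 ± 27.5 CPM in R&Zdel and 102 ± 39.8 CPM in R&Zflox (SD, n = 5 each), which overlapped. At 1M, in contrast, Clec4f stood at 106 to 144 CPM in R&Zdel and 89.3 to 181 CPM in R&Zflox (n = 4 each), and Timd4 at 2.17 to 18.3 and 4.73 to 16.5 CPM, so that each R&Zdel range crossed its control. The difference between the effects of genotype at 7M and 1M was tested itself, and no member reached an adjusted p under 0.1 (Timd4 -2.26 ± 1.34, adjusted p = 0.899).

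At 3M the levels differed widely between the batches, and R&Zdel had 1 library in each, as a further pair of samples was not analysed here. The 3 R&Zflox 3M libraries of the second batch held 11.3, 27.3 and 49.9 CPM of Clec4f, against 97.3 and 125 CPM in the pair of the first. Cd68 was at 0.427 to 1.25 CPM in the former and 12.1 and 12.9 CPM in the latter. Gpnmb was at 6.32 CPM in the single R&Zdel 3M library of the second batch and had no count in its 3 controls, and in the first batch it was at 0.615 CPM against 0.0815 and 0.132 CPM. The grouped R&Zdel libraries were above the grouped controls in both batches (log2 fold change 7.04 ± 2.49, adjusted p = 0.534). In the first batch this rested on R&Zdel 3M replicate 4, a female with male controls, whose title goes against its other labels. Without it 1 R&Zdel library remains, at 6.32 CPM against no count in the 3 controls of its batch. A first-batch library, R&Zflox 3M by its characteristics but R&Zdel 3M in the study's list, held 1.11 CPM of Gpnmb. Taken as R&Zflox, it would stand above the R&Zdel 3M library of its batch. Over all genes 29 were called without it, 0 with it as R&Zflox 3M and 45 with it as R&Zdel 3M. Batch, induction and genotype are unevenly spread over the 7 grouped 3M libraries.

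Markers of both kinds were higher in livers listed as chronically damaged. At 4 days of recovery in R&Zflox livers, 7 of 10 members were called higher than in undamaged R&Zflox livers of the same batch and none lower, while 5.37% of 12608 genes were called. The members' median log2 fold change was 1.92, against -0.01 over all genes. These and the following changes are on a TMM scale with a term for sex, whereas the CPM beside them are not. For CPM ranges that do not overlap, the share over all genes was counted only at 7M without damage.

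**Figure D1:**
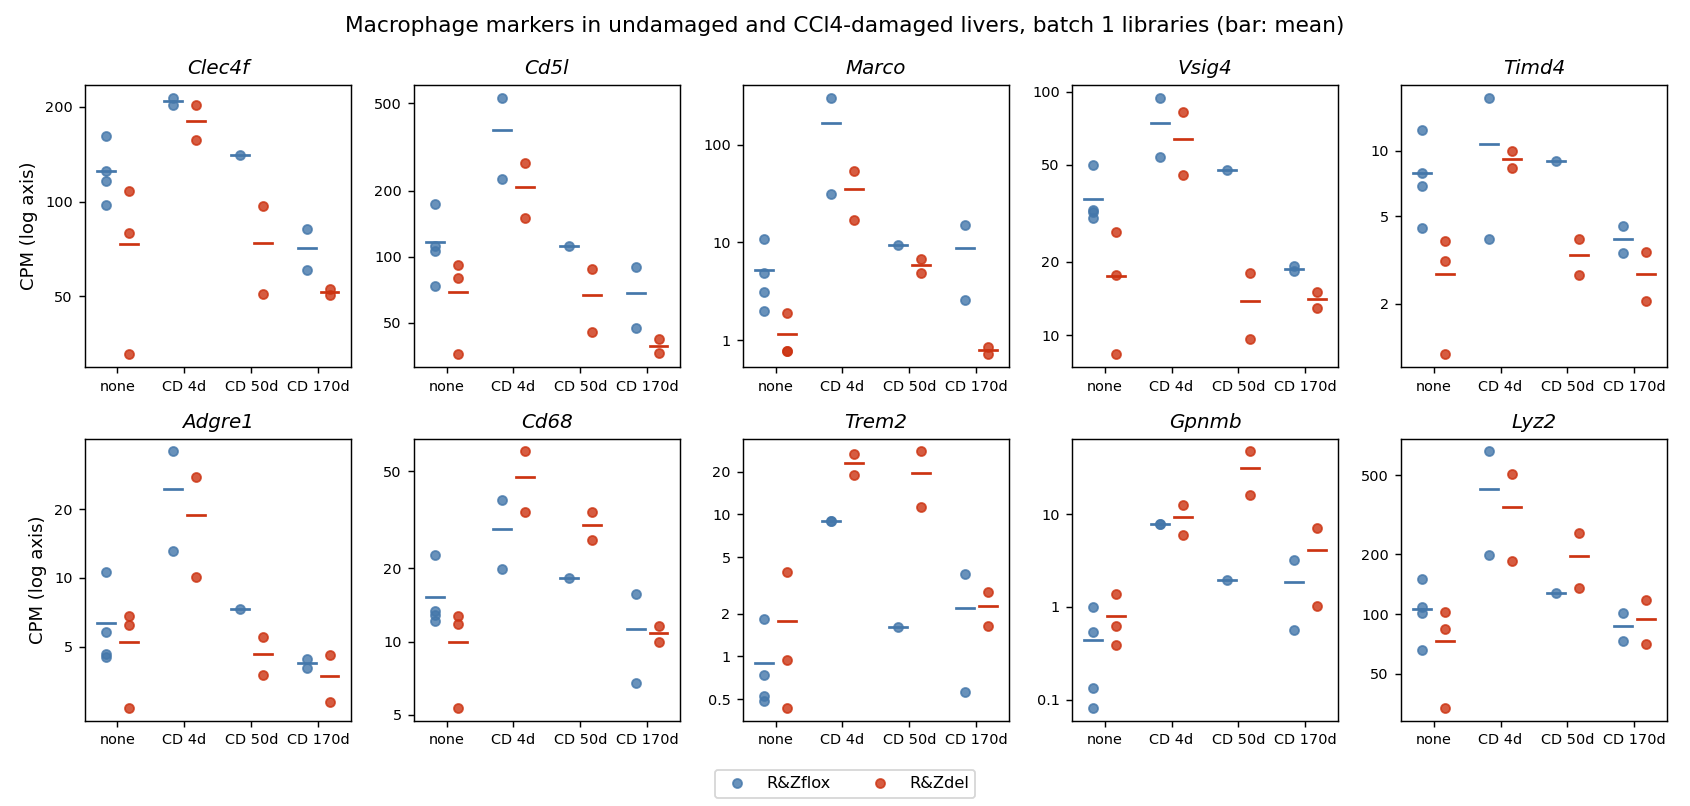
Each panel shows 1 marker in the first-batch libraries, with CPM on a log axis and the damage condition on the other axis. Points are libraries, bars are group means, blue is R&Zflox and red is R&Zdel. Trem2 at CD 50d stands at 11.3 and 27.8 CPM in R&Zdel and at 1.599 CPM in the R&Zflox library, while Vsig4 stands at 9.63 and 17.96 against 47.9 CPM.

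Marco showed the widest change of the resident markers after damage. It was at 31.6 and 302 CPM in R&Zflox CD 4d livers and between 1.998 and 10.8 CPM in the 4 undamaged R&Zflox livers. Both damaged livers were above every undamaged one, although they differed from each other by much (log2 fold change 5.47 ± 0.79, adjusted p = 0.00173). Cd5l was at 226 and 529 CPM against 73.7 to 174 CPM (1.79 ± 0.43, adjusted p = 0.0309), and Vsig4 at 53.9 and 94.4 CPM against 30.2 to 50.0 CPM (1.16 ± 0.33, adjusted p = 0.0662). Clec4f was at 203 and 214 CPM against 97.3 to 162 CPM, without overlap, but its change of 0.75 ± 0.37 was not called (adjusted p = 0.281). Timd4, at 3.93 and 17.4 CPM against 4.44 to 12.5 CPM, lay on both sides of the undamaged range.

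The scar-associated pair rose from low levels in the same livers. Trem2 was at 8.94 and 8.99 CPM in R&Zflox CD 4d and between 0.489 and 1.85 CPM in undamaged R&Zflox. The groups were apart (log2 fold change 3.37 ± 0.83, adjusted p = 0.0347). Gpnmb was at 7.79 CPM in both damaged livers and at 0.0815 to 1.00 CPM without damage (4.35 ± 0.95, adjusted p = 0.0201). Lyz2 was at 198 and 661 CPM against 65.8 to 151 CPM (2.06 ± 0.52, adjusted p = 0.0379), and Adgre1 at 13.1 and 35.8 CPM against 4.49 to 10.6 CPM (2.13 ± 0.43, adjusted p = 0.0144). Cd68, at 19.8 and 38.1 CPM against 12.1 to 22.7 CPM, was not called (1.04 ± 0.36, adjusted p = 0.120).

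In R&Zflox CD 4d replicate 2 held the higher value of 8 of the 10 members, all but Trem2 and Gpnmb. Without replicate 2, 142 genes were called in place of 677, and of the members only Marco was called (log2 fold change 3.13, adjusted p = 0.0541), whereas the fitted changes of Trem2 (3.41) and Gpnmb (4.38) stayed near their values with both libraries. The 9 neutrophil markers summed to 44.7 and 69.0 CPM in these livers against 4.32 to 16.8 CPM in undamaged R&Zflox, and the 10 monocyte markers to 24.7 and 47.9 CPM against 9.74 to 38.8 CPM. Their part in the result was not tested. Without R&Zdel 3M replicate 4 and R&Zflox 7M replicate 5, 6 members were called in R&Zflox and 8 in R&Zdel at CD 4d.

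In R&Zdel livers at CD 4d, 9 of 10 members were called higher (all but Clec4f), while 31.3% of genes were called. The members' median log2 fold change was 1.66, against 0.06 over all genes. Trem2 was at 19.0 and 26.6 CPM, against 0.435 to 3.95 CPM in 3 undamaged R&Zdel livers (log2 fold change 3.16 ± 0.81, adjusted p = 0.00741). Gpnmb was at 6.00 and 12.7 CPM against 0.392 to 1.37 CPM (3.14 ± 0.94, adjusted p = 0.0164). Marco was at 17.1 and 53.4 CPM against 0.773 to 1.88 CPM (4.91 ± 0.92, adjusted p = 0.00114), Vsig4 at 45.6 and 82.2 CPM against 8.35 to 26.6 CPM (1.57 ± 0.38, adjusted p = 0.00490), and Timd4 at 8.36 and 9.91 CPM against 1.17 to 3.85 CPM (1.47 ± 0.53, adjusted p = 0.0393). In each of these the damaged livers were above all the undamaged ones in plain CPM, in which the median gene was itself shifted by 0.60 (log2). Clec4f did the same, at 157 and 203 CPM against 32.8 to 108 CPM, with a change of 0.79 ± 0.40 that was not called. Without R&Zdel CD 4d replicate 2, 4 members were called: Marco, Vsig4, Cd68 and Trem2.

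**Figure D2:**
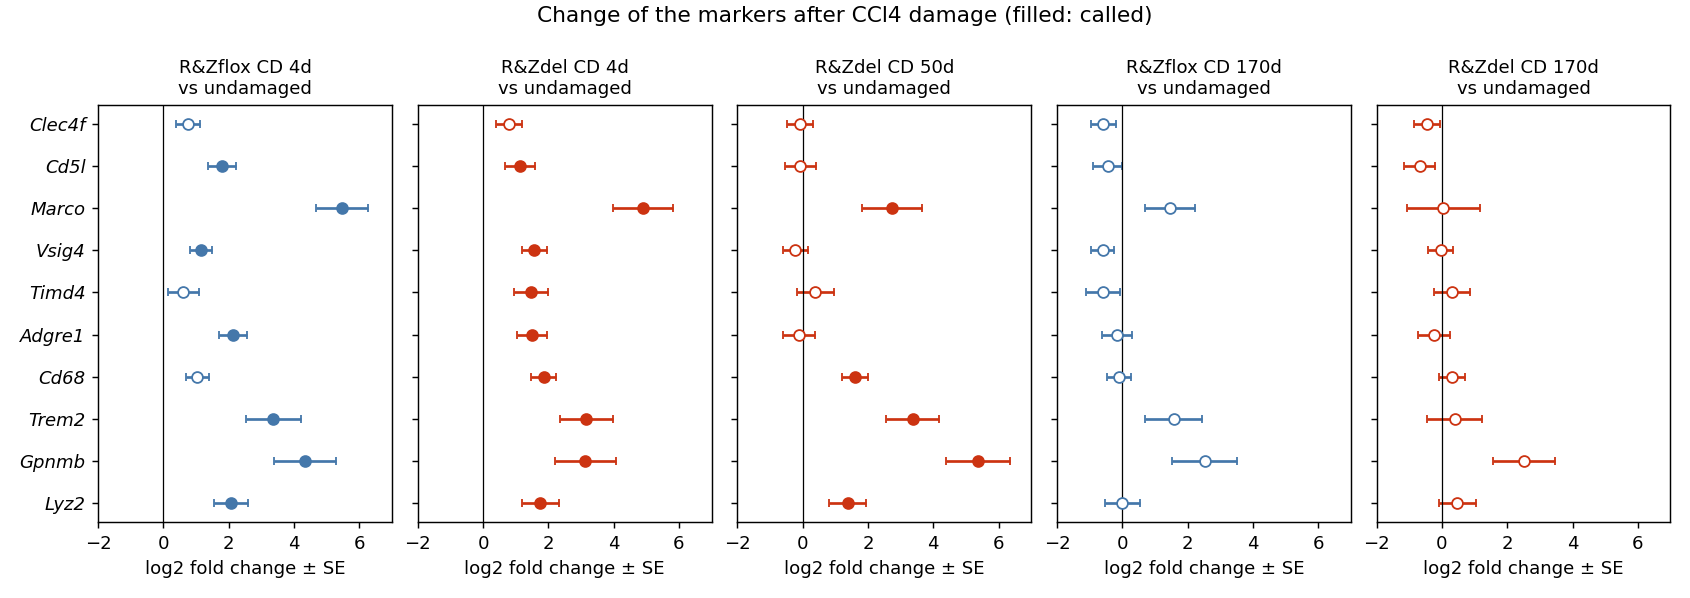
Log2 fold changes of the 10 markers against undamaged livers of the same genotype, with bars of 1 SE on either side and filled points for called changes. At CD 50d in R&Zdel livers, Gpnmb (5.37), Trem2 (3.37), Marco (2.73), Cd68 (1.6) and Lyz2 (1.37) are filled, while Clec4f, Cd5l, Vsig4, Timd4 and Adgre1 lie between -0.22 and 0.39. No point is filled at CD 170d, and the single R&Zflox CD 50d liver is not drawn.

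Set against each other at CD 4d, R&Zdel and R&Zflox livers differed in 2 of 10 members, while 15.2% of 11358 genes were called. Cd5l was lower in R&Zdel, at 150 and 266 CPM against 226 and 529 CPM (log2 fold change -1.36 ± 0.51, adjusted p = 0.0934), and so was Marco, at 17.1 and 53.4 CPM against 31.6 and 302 CPM (-2.75 ± 1.006, adjusted p = 0.0870). The ranges of both genes overlapped between genotypes, and both calls were lost without R&Zflox replicate 2, R&Zdel replicate 1 or R&Zdel replicate 2. Without R&Zflox replicate 2 the change of Marco was -0.39. With the replicate number as a block 0 members were called. Trem2 was higher in both R&Zdel livers than in both R&Zflox livers in CPM, with a fitted change of 0.85 ± 0.68 (adjusted p = 0.401). Plain CPM and the fitted scale part here: over all genes the median CPM ratio of R&Zdel to R&Zflox was 0.54 on the log2 scale, and 0.05 after TMM scaling. Gpnmb shows this, being higher in R&Zdel in mean CPM (9.34 against 7.79) and lower on the fitted scale (-0.25 ± 0.89).

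At 50 days of recovery the scar-associated and most resident markers stood at different levels relative to undamaged livers in R&Zdel mice. Against undamaged R&Zdel livers, 5 of 10 members were called, all higher, while 18% of 12608 genes were called. Gpnmb was at 16.1 and 47.8 CPM against 0.392 to 1.37 CPM (log2 fold change 5.37 ± 0.97, adjusted p = 0.00496). Trem2 was at 11.3 and 27.8 CPM against 0.435 to 3.95 CPM (3.37 ± 0.82, adjusted p = 0.0137). Both genes were above all undamaged R&Zdel livers, and so was Cd68, at 26.02 and 34.2 CPM against 5.35 to 12.7 CPM (1.6 ± 0.39, adjusted p = 0.0144). Lyz2 was at 136 and 256 CPM against 33.8 to 103 CPM (1.37 ± 0.56, adjusted p = 0.0851), and Marco at 4.92 and 6.79 CPM against 0.773 to 1.88 CPM (2.73 ± 0.93, adjusted p = 0.0470). In plain CPM the median gene was itself shifted by 0.26 (log2). The other resident markers, and Adgre1, were not called. Clec4f was at 51.0 and 97.1 CPM, inside the undamaged range of 32.8 to 108 CPM (-0.08 ± 0.40), and Vsig4 at 9.63 and 17.96 CPM, inside 8.35 to 26.6 CPM (-0.22 ± 0.38).

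With the 3 CD libraries of conflicting labels added, in a model that also had no term for sex, 0 members and 0 of 12658 genes were called at R&Zdel CD 50d, while leaving out the term for sex alone gave 3 members. Among the grouped libraries, the rise of Gpnmb and Trem2 at CD 50d was called whichever single R&Zdel CD 50d or undamaged R&Zdel library was left out, with fitted changes of at least 4.10 and 2.31. Marco and Lyz2 lost their calls without CD 50d replicate 1, and 3 members were called then, Cd68, Trem2 and Gpnmb. The count was also 3 without R&Zdel 7M replicate 1, and without R&Zdel 3M replicate 4, whose title goes against its other labels. When the 50d livers were set against the single R&Zdel 3M liver of the batch, 0 members were called, although Gpnmb (6.23) and Trem2 (5.31) changed by more. The stellate cell and fibroblast markers summed to 71.3 and 85.2 CPM at R&Zdel CD 50d against 7.83 to 21.9 CPM in undamaged R&Zdel, and the cholangiocyte markers to 50.1 and 76.6 CPM against 5.53 to 9.19 CPM. The part of these cells in the result was not tested.

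The single R&Zflox CD 50d liver held 1.599 CPM of Trem2 and 1.96 CPM of Gpnmb, from 40 and 49 counts. Its Trem2, Clec4f (141 CPM), Cd5l (112), Vsig4 (47.9) and Timd4 (8.995) were each inside the range of the 4 undamaged R&Zflox livers, and its Gpnmb was above all 4. None of its members was called against those livers, where 0.00793% of genes were, with 0 members at an unadjusted p below 0.05 and 0 called by DESeq2. Between genotypes at CD 50d, 1 of 10 members was called, while 5.58% of genes were: Vsig4 was lower in R&Zdel (-1.98 ± 0.47, adjusted p = 0.0711). Without R&Zdel CD 50d replicate 1 this call was lost, and 4 genes in all were called in place of 634. Gpnmb differed by 3.88 ± 1.36 (adjusted p = 0.141) and Trem2 by 3.44 ± 1.03 (adjusted p = 0.102), both higher in R&Zdel and short of the rule. DESeq2 called 3 members and edgeR's likelihood ratio test 4.

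This comparison rests on 1 control liver, whose spread was taken to be that of the other groups. A library with conflicting labels, listed as R&Zflox CD at 3 months in 1 field, held 8.25 CPM of Trem2, 7.54 CPM of Gpnmb and 42.3 CPM of Clec4f, unlike the R&Zflox CD 50d liver. Its R&Zdel counterpart held 5.08 CPM of Trem2, 10.8 CPM of Gpnmb and 106 CPM of Clec4f. With the 3 conflicting CD libraries added, 0 members and 0 of 11601 genes were called between genotypes, and Gpnmb and Trem2 differed by 2.38 and 1.55 (adjusted p = 0.918 for both). With the R&Zflox CD 170d pair taken as CD 50d, 3 members were called. The differences in CD effect between genotypes at 50 days were 2.94 ± 1.57 for Gpnmb (adjusted p = 0.293) and 1.15 ± 0.61 for Cd68 (adjusted p = 0.290), and no member reached an adjusted p under 0.1.

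At 170 days no member was called against undamaged livers in either genotype. The rule called 0.00793% of genes in R&Zflox and 0% of 12608 in R&Zdel, with 1 member in each at an unadjusted p below 0.05 (Gpnmb in both) and 0 called by DESeq2. Of all 12608 genes, 1009 reached that unadjusted p in R&Zflox and 1107 in R&Zdel. Gpnmb was at 0.558 and 3.19 CPM in R&Zflox (log2 fold change 2.53 ± 1.00) and 1.03 and 7.13 CPM in R&Zdel (2.52 ± 0.95). In both genotypes its lower library was near the undamaged level and its upper one above it. Clec4f was at 60.7 and 81.9 CPM in R&Zflox, below all 4 undamaged R&Zflox livers (-0.58 ± 0.38), and at 50.5 and 52.9 CPM in R&Zdel, inside the undamaged range (-0.45 ± 0.40). Vsig4 was at 18.3 and 19.2 CPM in R&Zflox, also below all 4 undamaged livers, and at 12.96 and 15.1 CPM in R&Zdel. In plain CPM the median gene was itself shifted by -0.18 (log2) in R&Zflox. Between genotypes 0 of 10 members were called and 0.625% of genes, with 1 member at an unadjusted p below 0.05 and 1 called by DESeq2, in both cases Marco. Of all 11358 genes, 1052 reached that unadjusted p. Marco was at 0.720 and 0.862 CPM in R&Zdel and 2.58 and 14.999 CPM in R&Zflox (-3.68 ± 1.19, adjusted p = 0.343).

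The balance of the 2 kinds was described by an index, the mean log2(CPM + 0.5) of the 5 resident markers minus that of Trem2 and Gpnmb. In undamaged R&Zflox livers of the first batch the index lay between 4.62 and 5.05 (n = 4), and in undamaged R&Zdel livers between 2.41 and 3.82 (n = 3). It was 2.53 and 4.01 in R&Zflox CD 4d and 1.98 and 2.01 in R&Zdel CD 4d. At CD 50d it was 4.04 in the R&Zflox liver and -0.75 and -0.07 in the R&Zdel livers, the lowest values of the 23 first-batch libraries and the only ones below 0. At CD 170d it was 2.68 and 3.80 in R&Zflox and 0.95 and 2.62 in R&Zdel. The index was lower in R&Zdel than in R&Zflox in mean at each time of the first batch. Among the grouped libraries the ranges did not meet at 4 or 50 days. At 170 days the gap was from 2.62 to 2.68, and with a prior of 0.1 CPM in place of 0.5 the ranges overlapped, at 2.83 in 1 R&Zdel library and 2.79 in 1 R&Zflox library. The conflicting libraries listed as CD at 3M were at 0.92 in R&Zflox and 1.45 in R&Zdel, and that listed as R&Zdel CD 7M at 3.94. Taken as CD 50d and CD 170d, they would make the ranges meet at both times. The conflicting libraries listed as undamaged by their characteristics were at 4.20 for R&Zdel 7M and 4.16 for R&Zflox 3M. Taken so, they would make the undamaged ranges of the first batch meet as well. In the second batch the 7M ranges overlapped, at 2.88 to 3.43 in R&Zdel and 1.84 to 5.10 in R&Zflox. The index has no test, as its parts were chosen with the data known.

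**Figure D3:**
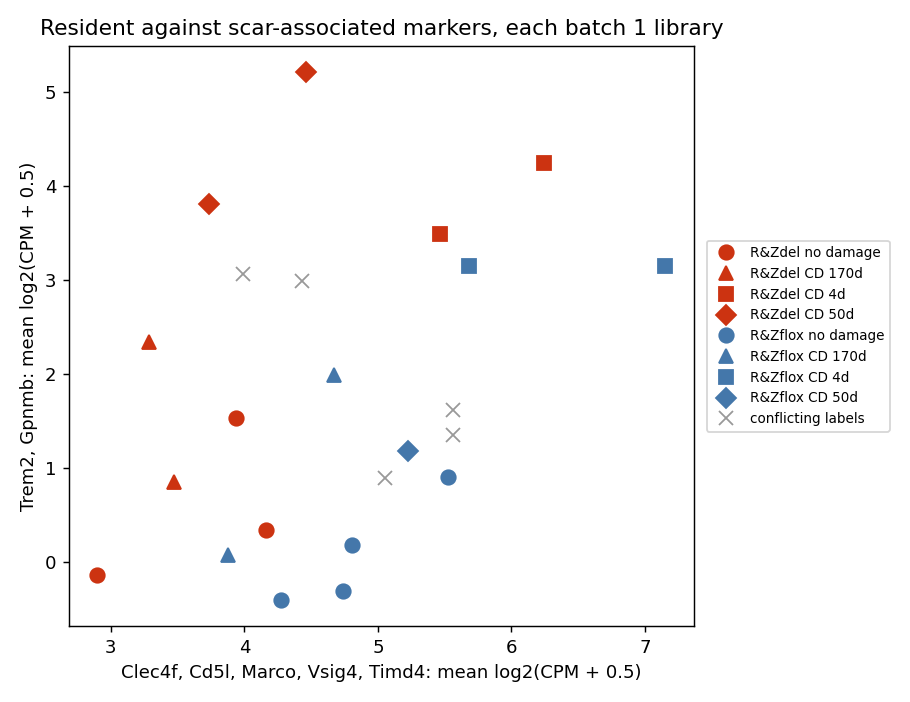
Each point is a first-batch library, with the mean log2(CPM + 0.5) of the 5 resident markers on the horizontal axis and of Trem2 and Gpnmb on the vertical axis. Colour gives the genotype, shape the damage, and crosses the 5 libraries with conflicting labels. The R&Zdel CD 50d livers (diamonds) lie at 3.81 and 5.21 on the vertical axis, and the R&Zflox CD 50d liver at 1.18.

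After PHx few differences in the markers passed a test. At 7 days 1 of 9 tested members was called between genotypes by the study's unadjusted rule (unadjusted p below 0.05 with more than 1 log2 unit of change), which called 3.99% of 12773 genes. With adjusted p under 0.1 it called 0 members and 0.274% of genes. The member was Trem2, which had 0 counts in the 3 R&Zdel PHx 7d libraries and was at 0, 1.25 and 2.13 CPM in R&Zflox PHx 7d (56 counts in all, adjusted p = 0.817). The pooled R&Zflox level of Trem2 was 20.1-fold above a floor of 3 counts over the R&Zdel group. This ratio leaves out the spread between libraries and is no lower bound on a difference between genotypes. An R&Zflox library also held no count of Trem2. The call was lost without R&Zflox replicate 3 or any 1 of the R&Zdel libraries. At 21 days 0 members were called by either rule, against 6.56% of genes by the unadjusted and 0.329% by the adjusted rule, with 0 members at an unadjusted p below 0.05 and 1 (Marco) called by DESeq2. Of all 12773 genes, 1108 reached that unadjusted p. Gpnmb did not pass the filter on low counts in these libraries and had 9 counts in all 12 PHx libraries.

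**Figure D4:**
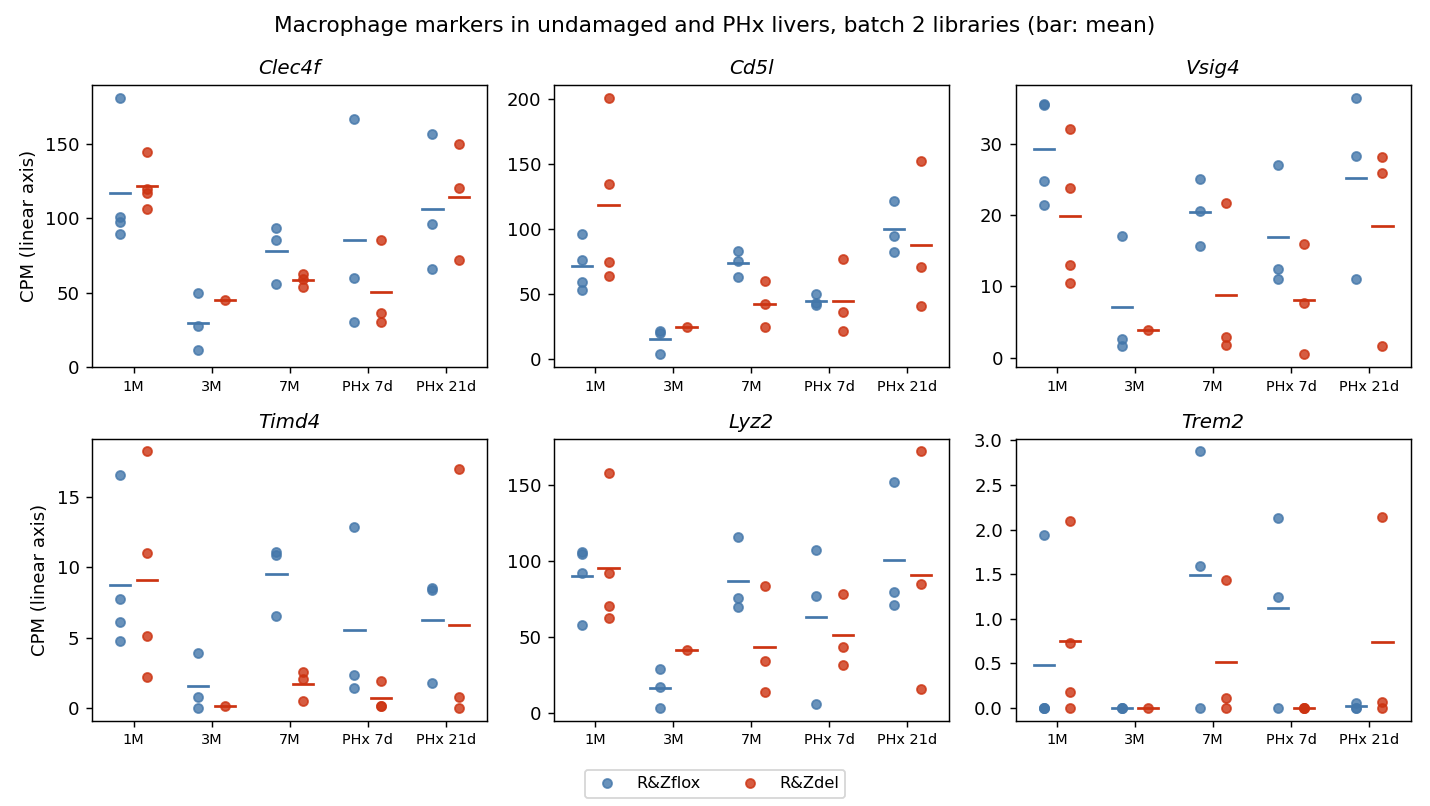
CPM of 6 markers on a linear axis in the second-batch libraries, by time and damage, with points for libraries and bars for group means. Timd4 at 7M stands at 2.56 CPM or less in R&Zdel and at 6.55 CPM or more in R&Zflox, and the 3M livers are low for Clec4f, Cd5l and Lyz2.

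Against undamaged 1M livers of the same genotype no marker was called after PHx. The rule of an adjusted p under 0.1 called 0.0235% of genes in R&Zflox and 0.0157% in R&Zdel at 7 days, and 0% in both at 21 days. In R&Zflox at 7 and 21 days and R&Zdel at 7 and 21 days, members at an unadjusted p below 0.05 numbered 0, 1 (Marco), 4 (Clec4f, Cd5l, Timd4 and Trem2) and 0 in that order, and DESeq2 called 0 in each. Of all 12773 genes, 739, 885, 637 and 627 reached that unadjusted p in the same order. In R&Zdel livers at 7 days Clec4f was at 30.1, 36.0 and 85.3 CPM, below the 106 to 144 CPM of the 4 undamaged livers (log2 fold change -1.26 ± 0.50, adjusted p = 0.967). Timd4 was at 0.109, 0.114 and 1.93 CPM against 2.17 to 18.3 CPM (-3.59 ± 1.66, adjusted p = 0.984). Both were below all undamaged R&Zdel livers at 7 days, a separation whose share over all genes was not counted. By 21 days Clec4f was at 72.0, 121 and 150 CPM and Timd4 at 0, 0.770 and 16.97 CPM, ranges that overlap the undamaged ones.

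Other genes of the same cells were read as lists. Of 14 genes found in macrophages in general, 10 were called higher and none lower in R&Zflox at CD 4d, 13 in R&Zdel at CD 4d and 11 in R&Zdel at CD 50d, while 5.37%, 31.3% and 18% of all genes were called in these comparisons. Without R&Zflox CD 4d replicate 2 the genes called in the first fell from 677 to 142, and with the conflicting CD libraries added and no term for sex 0 were called in the third. These shares and limits hold for every list below. The median log2 fold changes of the 14 genes were 1.32, 2.26 and 1.39. Among them Ctss, a lysosomal protease, rose by 2.90 ± 0.34 and Cd14, a co-receptor for bacterial lipopolysaccharide, by 3.74 ± 0.58 in R&Zdel at CD 4d (adjusted p = 9.87e-05 and 0.000379). In contrast, of 10 further Kupffer cell genes 0 were called in R&Zflox at CD 4d. In R&Zdel, 3 were called higher and 1 lower at CD 4d, and 2 were called lower at CD 50d. Those lower at CD 50d were C6, a complement component also made by hepatocytes, at -1.47 ± 0.38, and Cd163, the haemoglobin scavenger receptor, at -2.34 ± 0.69 (adjusted p = 0.0170 and 0.0274). Between genotypes at CD 4d, 3 of 9 were lower in R&Zdel, namely Fcna (-2.09 ± 0.39), Clec1b (-1.33 ± 0.29) and C6 (-1.15 ± 0.25), while 15.2% of all genes were called.

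Of 8 monocyte genes tested against undamaged livers, 7 were called higher in R&Zdel at CD 4d and 6 at CD 50d, and 1 in R&Zflox at CD 4d, against 31.3%, 18% and 5.37% of all genes. Ccr2, the receptor by which monocytes leave the marrow, had a mean of 9.77 CPM in R&Zdel CD 4d and 0.605 CPM in undamaged R&Zdel (3.78 ± 0.68, adjusted p = 0.000930). It was also higher in R&Zdel than in R&Zflox at CD 4d (1.90 ± 0.57, adjusted p = 0.0485), as was Cx3cr1 (2.98 ± 0.56, adjusted p = 0.00996).

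Of 12 other genes of lipid- or scar-associated macrophages, 8 were called higher in R&Zdel at CD 4d and 8 at CD 50d, with median log2 fold changes of 2.86 and 2.42, and 5 in R&Zflox at CD 4d (1.25), against 31.3%, 18% and 5.37% of all genes. The calls at CD 50d were all lost with the conflicting CD libraries added and no term for sex, and against the single 3M liver 324 genes were called in place of 2274. Between genotypes at CD 50d, 5 of 12 were higher in R&Zdel, among them Spp1, or osteopontin (2.81 ± 0.73, adjusted p = 0.0812), Itgax (3.27 ± 0.90, adjusted p = 0.0884) and Cd63, a tetraspanin of lysosomes (2.51 ± 0.69, adjusted p = 0.0883), while 5.58% of all genes were called. These calls rest on 1 control liver and were lost with the 3 conflicting CD libraries added, when 0 of 11601 genes were called, and 4 genes in all were called without R&Zdel CD 50d replicate 1. Spp1 is also expressed by cholangiocytes, and all 4 cholangiocyte markers were called higher in R&Zdel than in R&Zflox at CD 4d, such as Epcam at a mean of 129 against 0.958 CPM. Of the chemokines and cytokines, 12 of 14 tested were called higher in R&Zdel at CD 4d, 5 at CD 50d and 2 in R&Zflox at CD 4d. Tnf, a cytokine of activated macrophages, was at a mean of 2.12 CPM in R&Zdel CD 4d and 0.0143 CPM without damage (7.45 ± 1.41, adjusted p = 0.00122). Its level without damage was near no counts, so that the size of this change is not well set. Cxcl10, which draws T cells, was at a mean of 34.2 CPM in R&Zdel and 4.44 CPM in R&Zflox at CD 4d (2.45 ± 0.29, adjusted p = 0.00181), and Ccl2, which draws monocytes, was raised in R&Zdel by 3.36 ± 0.93 (adjusted p = 0.0110).

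Of 11 phagocytosis and scavenger receptor genes, Axl was called higher in all 3 of these comparisons, by 1.24 ± 0.32 in R&Zflox CD 4d, 2.03 ± 0.35 in R&Zdel CD 4d and 1.28 ± 0.35 in R&Zdel CD 50d. The remaining lists mark other cells of the liver. Neutrophil genes were called higher in 4 of 5 tested in R&Zflox CD 4d, 5 of 5 in R&Zdel CD 4d and 0 of 5 in R&Zdel CD 50d. Stellate cell and fibroblast genes were called higher in 1, 3 and 4 of 5, among them the collagen gene Col1a1 at 4.58 ± 0.67 in R&Zdel CD 4d and 3.32 ± 0.65 in R&Zdel CD 50d. Lymphocyte genes were called higher in 1, 4 and 3 of 8, dendritic cell genes in 0, 2 and 1 of 3, endothelial genes in 1, 0 and 0 of 5, and cholangiocyte genes in 0, 4 and 3 of 4. Of 5 red blood cell genes Alas2 alone was called, lower in R&Zdel CD 4d (-3.72 ± 0.44) and CD 50d (-1.49 ± 0.40). Hepatocyte markers fell in R&Zdel CD 4d in 2 of 5 cases, Fgb by 1.21 ± 0.27 and Serpina1c by 1.23 ± 0.33 on the log2 scale.

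Across libraries, the genes whose levels ran most like the mean of the 5 resident markers, out of 10956 genes, were C1qc, Csf1r, Msn, C1qa and Laptm5. Their smaller correlation of the batch values (18 libraries in the first, 30 in the second) was from 0.742 for Laptm5 to 0.778 for C1qc. For the mean of Trem2 and Gpnmb the nearest were Galnt7, Dpep1, Lpl, Uap1l1 and Mfng, from 0.493 to 0.556. For all of these the smaller value was that of the second batch, where Trem2 and Gpnmb lay at or near no counts. A few libraries with counts could therefore set this order. In the first batch their correlations were from 0.589 for Galnt7 to 0.933 for Uap1l1. These correlations share depth and library makeup among their points and carry no test.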

How the data were processed

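Whole-liver RNA was sequenced from 53 libraries of R&Zdel and R&Zflox mice with the SMARTSEQ2 protocol. The authors deposited whole-number read counts per gene, not normalised. Per the submitters' processing notes, reads were trimmed with Trim Galore, aligned to mm10 with STAR 2.5.0a and counted without regard to strand with featureCounts, versions 1.5.0-p3 and 1.5.0-p1. The 2 batches were deposited as separate tables and joined by gene symbol.

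Samples were grouped by the labels, and 5 libraries with conflicting labels entered no group. CPM and RPKM were computed from the deposited counts. Each of 4 sets of libraries was fitted on all genes above 1 CPM in at least 3 libraries (6 for the CD genotype comparisons), with edgeR 4.0.16 (R 4.3.3), TMM scaling and the quasi-likelihood test with Benjamini-Hochberg adjustment. Undamaged livers were fitted with terms for batch and sex, PHx livers and CD against undamaged livers with a term for sex, and CD genotypes with the group alone. A gene was called at an adjusted p under 0.1 and an absolute log2 fold change above 1, and after PHx between genotypes at an unadjusted p under 0.05 instead, as in the study. Undamaged controls are shared by the comparisons with damage. Standard errors were derived from the fold change and its test. The scripts were tested on simulated data.

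The 10 members, the gene lists and the genes named from them were chosen with earlier results of these data known. All 10 members are named, of each list up to 3 called genes among those with the largest absolute change in the comparison described, Rnf43 and Znrf3, and the 5 genes most like each marker set. Counting error alone sets a floor of 3 counts for a gene with none. Same-numbered libraries of both genotypes had correlated deviations of -0.0805 to -0.0483 at 1M, -0.0662 to -0.0106 at PHx 7d, -0.0263 to -0.00247 at PHx 21d, 0.334 at CD 4d and -0.357 at CD 170d, so that the numbers were not taken to pair them. Alternatives were other scaling (RLE), no filter, DESeq2 1.42.0, the likelihood ratio test, other terms and samples, and each library left out in turn. Promoters were read from a RefSeq table, and figures were drawn with matplotlib 3.10.9.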

Additional observations from a re-analysis of the deposited data

Results flagged for a closer look

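Dixon's test was run on 31 sets of values, each of 1 marker or the index in 1 group of 4 libraries. The groups were R&Zflox 1M, R&Zdel 1M and undamaged R&Zflox of the first batch. In 7 sets the gap of a library to its nearest neighbour was wide for the range of its group. Chance alone gives this in about 1 of 20 independent sets. These sets share the same libraries and are not independent, so that the number of flags has no chance rate to be set against. In undamaged R&Zflox livers of the first batch, 7M replicate 5, a female whose title goes against its other labels, was high for Cd68 (22.7 CPM) and Vsig4 (50.0 CPM), and 3M replicate 2 was high for the resident minus scar-associated index (5.05). At 1M, R&Zflox replicate 1 was high for Clec4f (181 CPM) and Trem2 (1.94 CPM), R&Zflox replicate 3 for Marco (21.1 CPM), and R&Zdel replicate 2 for Marco (12.6 CPM).

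The 5 libraries with conflicting labels, which no comparison used unless stated, held members above every undamaged library of the first batch. The library listed as undamaged R&Zdel 7M by its characteristics held 213 CPM of Clec4f, 266 CPM of Cd5l, 56.3 CPM of Vsig4, 13.2 CPM of Timd4, 14.6 CPM of Adgre1, 27.03 CPM of Cd68, 1.44 CPM of Gpnmb and 196 CPM of Lyz2. That listed as undamaged R&Zflox 3M held 182 CPM of Clec4f, 50.7 CPM of Vsig4, 23.5 CPM of Cd68 and 193 CPM of Lyz2. That listed as R&Zdel CD 7M held 192 CPM of Cd5l, 13.9 CPM of Marco, 57.8 CPM of Vsig4, 12.99 CPM of Adgre1, 24.6 CPM of Cd68, 2.92 CPM of Gpnmb and 204 CPM of Lyz2. Those listed as CD at 3M held 5.08 CPM of Trem2, 10.8 CPM of Gpnmb and 201 CPM of Lyz2 in R&Zdel, and 8.25 CPM of Trem2, 7.54 CPM of Gpnmb and 195 CPM of Lyz2 in R&Zflox. The first 3 were thus high for resident markers and the CD 3M libraries for Trem2 and Gpnmb.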

How the results depend on the processing

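Of 1536 single-member results under other settings 1466 kept their side of the threshold, 38 lost and 32 gained a call. Of 1020 with a library left out, 970 kept their side, 39 lost and 11 gained a call. In both sets 0 results called under either setting changed sign. The sign of results called under neither was not compared. The count of members called moved as follows, and where no value shows the cause it was not tested. Without a filter it was 1 for R&Zdel against R&Zflox at PHx 21d, 5 at CD 50d and 1 at CD 170d, and against undamaged livers 1 for R&Zdel PHx 7d, 2 for R&Zflox CD 50d, 3 for R&Zflox CD 170d and 1 for R&Zdel CD 170d. DESeq2 gave 1 at PHx 21d, 3 at CD 50d and 1 at CD 170d, and the likelihood ratio test 2 at PHx 7d, 4 at CD 50d and 1 at CD 170d. With the replicate block the count was 0 at PHx 7d and 0 at CD 4d, and no other count of members moved with the block or the pairing. With an adjusted p it was 0 at PHx 7d. For R&Zdel against R&Zflox at CD 50d it was 4 with libraries of that time alone and 3 with the R&Zflox CD 170d pair used as CD 50d. With the 3 conflicting CD libraries added, a choice made after seeing the data, it was 0 at CD 4d and 0 at CD 50d between genotypes. With them added and the term for sex dropped, both at once, it was 4 in R&Zflox CD 4d, 5 in R&Zdel CD 4d and 0 in R&Zdel CD 50d against undamaged livers, and with the term for sex alone dropped it was 6, 8 and 3. For R&Zdel CD 50d against undamaged livers it was 3 with males alone, 3 without the pair of libraries with conflicting titles (chosen after seeing the data) and 0 against 3M alone.

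With 1 library left out the counts were 0 to 1 at 7M, 0 to 2 at PHx 7d, 0 to 1 at PHx 21d, 0 to 2 at CD 4d, 0 to 1 at CD 50d and 0 to 1 at CD 170d between genotypes, and against undamaged livers 1 to 7 in R&Zflox CD 4d, 4 to 10 in R&Zdel CD 4d and 3 to 5 in R&Zdel CD 50d. The single R&Zflox CD 50d library could not be left out.

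The index difference, R&Zdel minus R&Zflox, was -1.04 at 3M in the first batch and became -0.59 with wider marker sets, -1.66 with a prior of 0.1 CPM and -0.57 with 2 CPM. At 3M in the second batch it was -1.81, and -3.09 and -0.86 with those priors. At 7M in the first batch it was -1.90, and -1.10 with wider sets and -1.58 with 2 CPM. At CD 50d it was -4.45, and -3.02 and -3.72. At PHx 7d it turned from -0.11 to 0.60 with 0.1 CPM.

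Over all genes the number called, 56 at 1M, 29 at 3M and 58 at 7M, ranged over the alternatives from 14 to 302, 0 to 134 and 14 to 204. Between genotypes it was 510 (35 to 754) at PHx 7d, 838 (42 to 1189) at PHx 21d, 1729 (775 to 2956) at CD 4d, 634 (0 to 1671) at CD 50d and 71 (0 to 600) at CD 170d. Against undamaged livers it was 677 (142 to 1269) in R&Zflox CD 4d, 1 (0 to 147) in CD 50d and 1 (0 to 572) in CD 170d, and 3951 (2874 to 4949), 2274 (0 to 3078) and 0 (0 to 535) in R&Zdel. After PHx it was 3 (0 to 197) and 0 (0 to 338) in R&Zflox and 2 (2 to 193) and 0 (0 to 175) in R&Zdel. In plain CPM the median gene shifted by 0.60 (log2) in R&Zdel CD 4d and 0.26 in R&Zdel CD 50d against undamaged livers, by 0.25 at CD 50d, 0.19 at CD 170d, 0.16 at 1M and 0.16 at PHx 21d between genotypes, and by -0.18 in R&Zflox CD 170d, while with TMM these shifts were from -0.02 to 0.04. Groups of 1 to 3 livers limit every comparison with damage, and in the second batch Trem2 and Gpnmb lay at or near no counts.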
